A study of Homo sapiens with 24 samples.

Results

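Spliceosomal small nuclear RNAs (snRNAs) were examined as RNA targets in eCLIP maps of 3 proteins in HEK293, an established line from human embryonic kidney. The genes were taken by symbol, those beginning with RNVU1 or with RNU and the number of a spliceosomal snRNA, from every gene named by an enriched window. Bare symbols such as U2 and U6, which also stand in the lists, fall outside this rule and were left out. The rule gave 56 genes of the 9792 named in any of the 6 deposited lists of windows. They comprised 6 genes or copies of U1, 14 of U2, 1 of U4, 5 of U5, 27 of U6 and 3 of the minor spliceosome, which removes a rare class of introns. The symbols name gene copies, and many copies of an snRNA are alike in sequence, so the copy that a read came from is uncertain.

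The snRNAs are the RNA core of the spliceosome. U1 pairs with the 5′ splice site of an intron and U2 with its branch site. U6 arrives paired to U4 in a particle that also holds U5, and must be freed from U4 before it can pair with the 5′ splice site and with U2. U5 holds the exon ends for joining. In the minor spliceosome U11, U12, U4atac and U6atac take the places of U1, U2, U4 and U6, and U5 serves both. SNRNP200, a helicase in the U5 particle, pulls the U4 and U6 strands apart. G3BP1 and the CAPRIN proteins are known from stress granules, which are cytoplasmic assemblies of mRNA and protein.

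In eCLIP a protein is crosslinked to RNA and immunoprecipitated (IP), and the reads are compared with an input library. The 24 libraries made 12 groups of 2 replicates, an IP and an input group for each of 6 experiments. SNRNP200 was mapped in whole cells without treatment, in whole cells with 500 µM arsenic, in the cytoplasmic fraction without treatment and in that fraction with 500 µM arsenic. CAPRIN, for which the label gives no family member, and G3BP1 were mapped without arsenic by their sample characteristics. The general treatment text names arsenic for all samples, and the same antibody number stands beside all 3 proteins, so treatment and protein were taken from each sample's own label. The sources used here give neither the length of treatment nor whether replicates were separate cultures. A p value below therefore measures only the spread between these samples, which may be technical. No genotype other than the cell line is given. The lists hold enriched windows and no expression levels, so the cell line was not checked against marker genes.

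Each list holds windows of at most 100 bases on hg38, with IP and input reads summed over both replicates and a log2 enrichment of IP over input for the lowest replicate, the highest and their mean. Listed IP reads ranged from 189220 to 8092831 per experiment. They are no library depth, which is unknown. Every listed window had passed as enriched, so an enrichment above 0 was a condition of being listed. Each list was also scaled by itself. In whole cells a window at log2 0 had 1.63 input reads for each IP read without arsenic and 1.58 with it, and in the cytoplasm 1.01 and 9.06. A gene that is not listed may still have had reads.

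With SNRNP200 in whole cells, 31 of the 56 snRNA genes were listed without arsenic and 49 with it. Of all 9792 genes, 92.4% were listed without arsenic and 83.8% with it, against 55.4% and 87.5% of the snRNA genes. All 31 genes of the untreated list recurred with arsenic, and the 49 included 18 more. Of the 9279 genes with a whole cell window, 2.45% were listed only with arsenic and 11.6% only without. U6 supplied 13 of the 18 genes, U2 supplied 3 (RNU2-61P, RNU2-63P and RNU2-70P), and U4 and U5 supplied 1 each. Being listed is 1 value per experiment, since the authors joined the replicates, and it was not tested. The arsenic list was also the shorter one, with 117690 windows against 182066. With at least 10 input reads required of a window, the snRNA genes numbered 18 without arsenic and 24 with it, and U6 genes 4 and 7. In windows that named no gene other than snRNAs they numbered 25 and 29, and U6 genes 10 and 11.

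**Figure D1:**
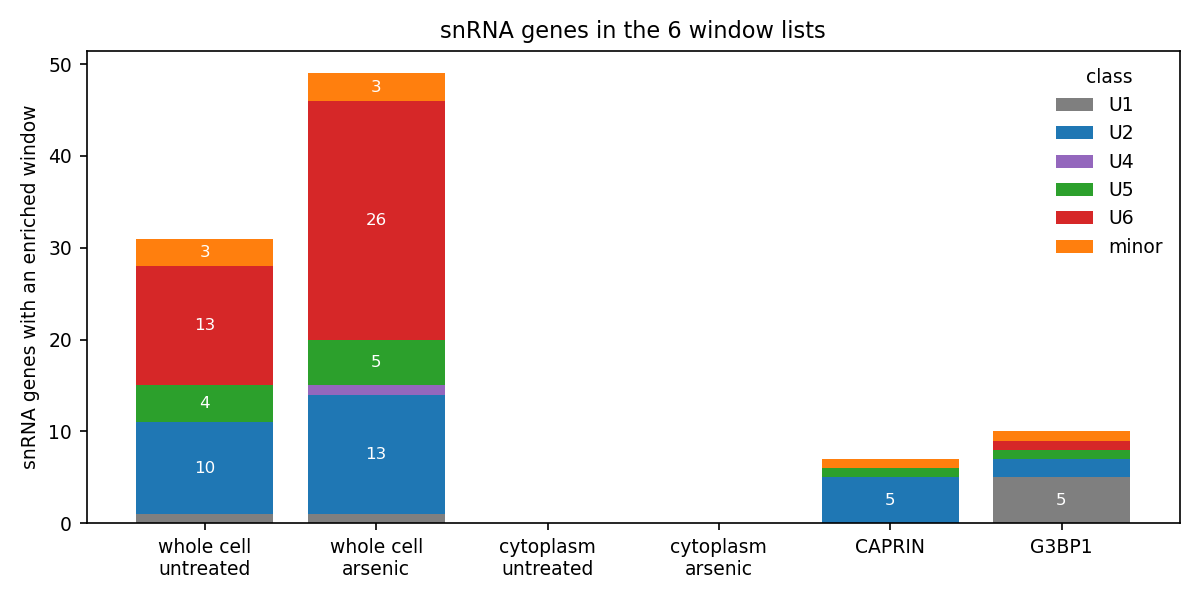
Number of snRNA genes with at least 1 enriched window in each of the 6 lists (y axis), coloured by class; numbers are printed where a class has 3 or more genes. U6 makes up 13 of 31 genes in untreated whole cells and 26 of 49 with arsenic, and both cytoplasmic lists are empty.

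No snRNA gene was listed for SNRNP200 in the cytoplasm, with or without arsenic, against 18.6% of all genes without it and 25.2% with it. Windows on other nuclear RNAs were counted beside this. MALAT1, a long noncoding RNA kept in the nucleus, had 2 windows in each whole cell list and none in either cytoplasmic list, but 11 in the CAPRIN list. NEAT1, the scaffold of nuclear paraspeckles, had none in any of the 6 lists, nor had KCNQ1OT1, MEG3 or SNHG14. Introns held 58.9% and 62.6% of whole cell windows, against 9.71% and 12.3% of cytoplasmic ones. Other small RNAs were counted as snoRNA, scaRNA, 7SK, 7SL, Y and U7 genes. Of these, 6 genes did appear in the cytoplasmic list with arsenic. That list held 8 small RNA windows outside the symbol rule, and any bare symbols such as U2 among them were not counted as snRNAs.

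U6, the RNA that SNRNP200 helps to separate from U4, had the highest median enrichment of the classes in both whole cell lists. The median of its windows was 5.61 in 17 windows without arsenic and 5.22 in 32 with it, against 3.46 and 3.60 over all windows of the same lists. Its window means ran from 3.29 to 7.48 without arsenic and from 3.72 to 7.50 with it. The counts behind these values were uneven. The median U6 window held 185 IP and 7 input reads without arsenic and 142.5 and 3.5 with it, and 11 of 17 and 22 of 32 windows had fewer than 10 input reads. A listed log2 value of such a window rests on few input reads.

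RNU6-7 was the only listed U6 gene that RefSeq annotates as an snRNA and not as a pseudogene. It lies on chromosome 14 at 32202045 to 32202151, where 2 adjacent windows cover it on the plus strand of hg38. The window over its 5′ segment, the stretch before the midpoint of the gene, held 19419 IP and 652 input reads without arsenic, with replicate log2 enrichments of 5.41 and 6.30. With arsenic the same segment held 19881 IP and 1114 input reads, at 4.09 and 6.16. The 3′ segment held 2573 IP and 75 input reads at 5.73 and 5.76, and with arsenic 4394 and 83 at 5.60 and 6.42. The replicate ranges of the 2 conditions overlapped in both segments. RNU6-7 took 75.3% of the IP reads in U6 windows without arsenic and 63.1% with it. RefSeq annotates 1282 U6 genes and pseudogenes, 5 of them as snRNA, and the others of those 5, RNU6-1, RNU6-2, RNU6-8 and RNU6-9, were in no list.

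The highest U6 enrichments belonged to copies with few input reads. RNU6-1266P had its window on the minus strand of chromosome 10 at 77777003 to 77777055. Its replicates were 5.83 and 6.54 without arsenic and 6.15 and 8.84 with it, on 1 input read each time and 83 and 236 IP reads. RNU6-27P on chromosome 20 had replicates of 7.18 and 7.77 in its 5′ segment without arsenic, with 653 IP and 7 input reads. With arsenic that segment had 5.37 and 5.51, so the ranges did not overlap. RNU6-1329P on chromosome 12 had 5.36 and 6.87 in its 5′ segment without arsenic and 6.39 and 7.19 with it. RNU6-393P on chromosome 7 had 6.04 and 6.67 without arsenic on 1 input read, and 4.38 and 4.72 with it on 6. RNU6-222P on chromosome 19 had 5.76 and 5.94 without arsenic and 6.02 and 6.32 with it. RNU6-38P on chromosome 13 had its replicates furthest apart, at 3.14 and 8.63 without arsenic on 143 IP and 3 input reads, and at 4.34 and 5.20 with it. RNU6-48P, in an intron of TMEM222, had 5.18 and 5.95 without arsenic on 920 IP reads and 4.90 and 5.13 with it on 1642, ranges that did not overlap. RNU6-15P on chromosome 10 had 3.69 and 6.05 without arsenic and 5.46 and 6.41 with it, with overlap.

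RNU6-17P on chromosome 15 held the most U6 IP reads after RNU6-7. It had 1.18 and 5.40 in its 3′ segment without arsenic on 2827 IP reads, a gap of 4.22 between the replicates. With arsenic that segment had 4.75 and 6.10 on 6292 IP reads, with overlap.

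The 13 U6 copies listed with arsenic and not without it lay mostly in introns, and those listed in both experiments mostly did not. Of the 13, 12 lay in an intron of another gene, and each of these 12 host genes was itself listed in both whole cell experiments, as most genes were (92.4% and 83.8% of all genes). The U6 window itself names the host with arsenic. The hosts were MTMR12, CBX1, SKP2, DCBLD2, EIF4ENIF1, LSM1, RBMS2, ANKRD26, ACVR1B, GFM2, IGF2BP1 and RAB10. The exception, RNU6-398P, which is named here because of its position, lay in no other listed gene. Of the 13 U6 copies listed in both experiments, 3 lay in an intron, in AKR7A2, TMEM222 and CPNE1. Over all snRNA classes, 14 of the 18 genes listed only with arsenic and 4 of the 31 in both were intronic. Among the other small RNAs, all 6 with a whole cell window were intronic, 2 in both lists and 4 without arsenic only. No test was made of these counts.

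The 12 intronic U6 windows listed only with arsenic were weak in reads. They held 15 to 470 IP reads with a median of 78.5 and 1 to 30 input reads with a median of 2, at mean enrichments from 3.72 to 6.78. RNU6-26P, in an intron of DCBLD2 on chromosome 3 with its window at 98804978 to 98805030, was the highest. Its replicates were 5.76 and 7.80 on 148 IP reads and 1 input read. RNU6-28P in EIF4ENIF1 had the most reads, 470 IP and 30 input, with replicates of 3.86 and 6.51. The nearest listed window of the host that named no snRNA lay 435 to 11826 bases away, with a median of 3338.5, and none lay within 400 bases. With at least 10 input reads required of a window, 3 U6 copies were listed only with arsenic, and 2 of them were intronic. In windows that named no gene other than snRNAs, which leaves out windows inside a host, 1 U6 copy was listed only with arsenic. Whether reads of the host transcripts contributed to these windows was not tested.

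**Figure D2:**
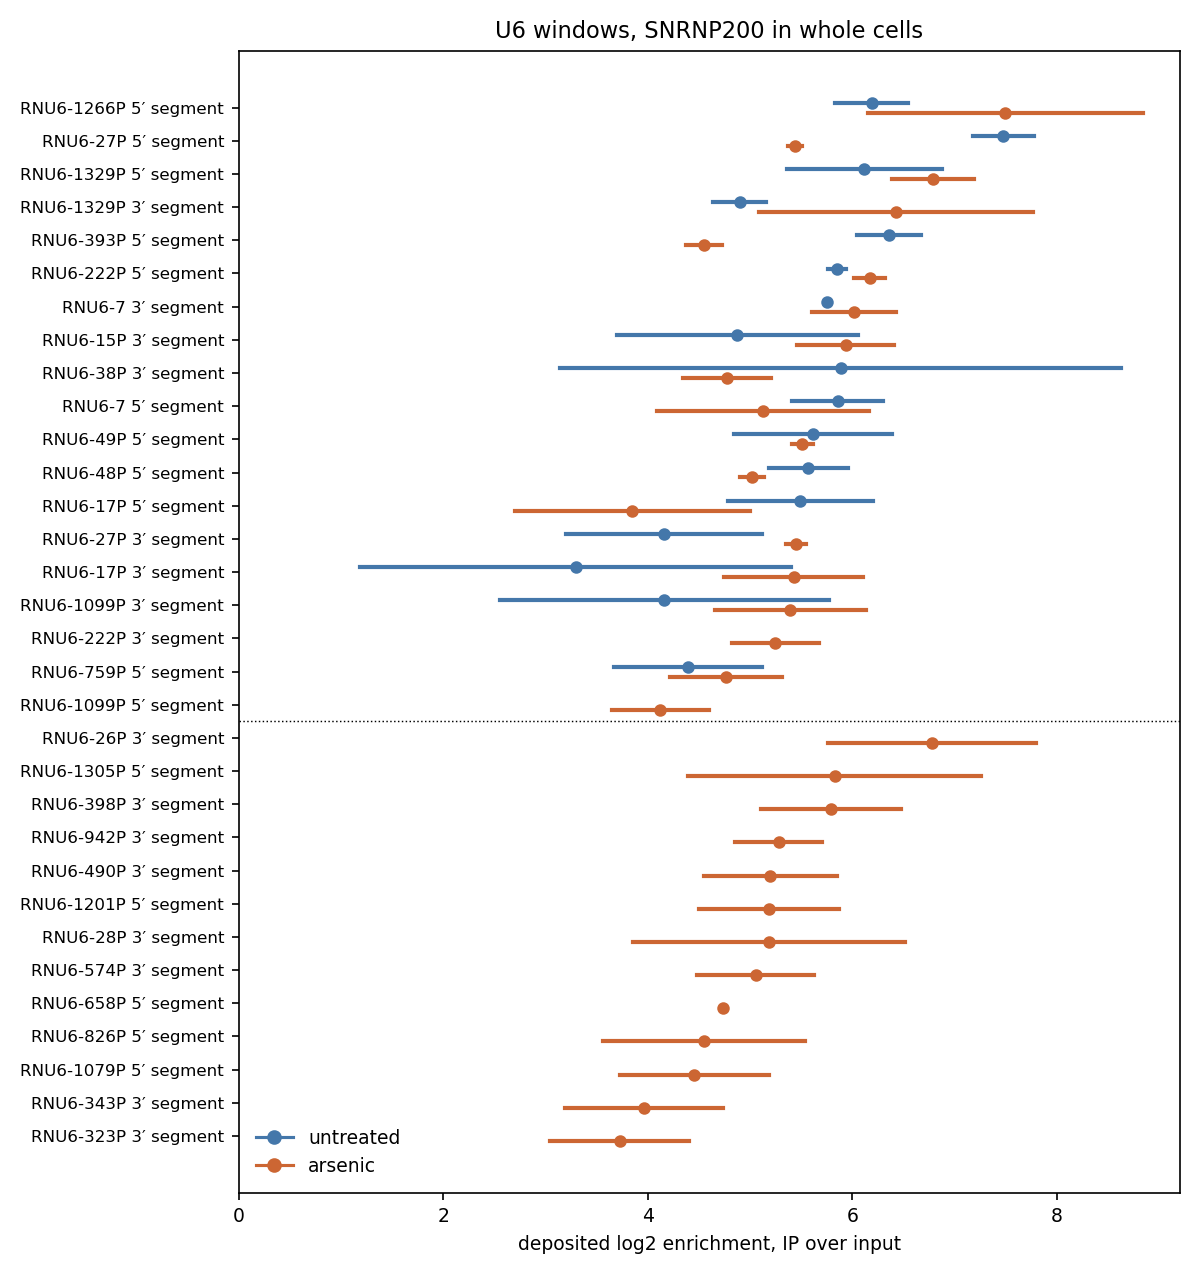
Deposited log2 enrichment of IP over input (x axis) for each U6 window of SNRNP200 in whole cells, as the mean (point) and both replicates (ends of the line), without arsenic in blue and with it in orange. Copies below the dotted line were listed only with arsenic; their means lie between 3.72 and 6.78, within the range of the copies above it.

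By the symbol rule, U4, the partner of U6, was nearly absent, and bare symbols were not counted. Its single listed copy was RNU4-78P, a pseudogene in an intron of TRAK1 on chromosome 3, with its window at 42221840 to 42221902. It appeared for SNRNP200 in whole cells with arsenic only, with replicates of 3.27 and 4.67 on 100 IP and 12 input reads. RefSeq annotates 91 U4 genes and pseudogenes, 2 of them as snRNA, and neither of the 2 was listed in any experiment. The sources used here do not say how reads that map to several copies were treated.

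U5, the RNA of the particle to which SNRNP200 belongs, had few copies and many reads. It had 4 genes in untreated whole cells and 5 with arsenic, and took 0.812% of all listed IP reads without arsenic (95% exact interval 0.806 to 0.818) and 1.81% with it (1.80 to 1.83). These intervals cover counting error only. The U5 share of listed input reads was larger, 2.62% without arsenic and 4.15% with it. The median enrichment of U5 windows was 2.71 without arsenic and 3.54 with it, below the list medians of 3.46 and 3.60. RNU5E-1, an snRNA gene on chromosome 1, held 32879 IP and 13289 input reads in its 5′ segment at 11908152 to 11908211, with replicates of 2.19 and 3.24. With arsenic that segment held 43645 IP and 10139 input reads at 3.19 and 3.33. RNU5D-1, the other listed U5 gene annotated as snRNA, had 2.04 and 2.74 without arsenic on 19104 IP and 10820 input reads. With arsenic it had 2.10 and 3.45 on 24979 and 10095. For both genes the ranges of the 2 conditions overlapped.

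The U5 pseudogenes had fewer reads. With arsenic the means of their 5′ windows were 3.54 to 6.25, above those of both snRNA genes, and without arsenic 1 of the 2 listed, RNU5E-4P, lay above both. RNU5E-4P, on chromosome 1 close to RNU5E-1, had 3.99 and 4.54 in its 5′ segment without arsenic and 4.06 and 4.94 with it. RNU5E-6P had 2.65 and 2.77 without arsenic and 3.0 and 4.07 with it, and these ranges did not overlap. RNU5E-10P, in an intron of KBTBD4 on chromosome 11, was listed only with arsenic, at 6.12 and 6.38 on 270 IP and 5 input reads, the highest U5 value. RefSeq annotates 5 U5 genes as snRNA, and RNU5A-1, RNU5B-1 and RNU5F-1 were in no list.

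U2 had 10 genes and 12 windows in untreated whole cells and 13 genes and 18 windows with arsenic, with median enrichments of 3.93 and 3.22. Its share of listed IP reads was 1.63% without arsenic (95% exact interval 1.63 to 1.64) and 1.61% with it (1.60 to 1.62). Most of these reads came from RNU2-1 on chromosome 17 and RNU2-2P on chromosome 11, both annotated as snRNA despite the latter's pseudogene ending. The 5′ segment of RNU2-1, at 43233882 to 43233977 on the minus strand, had replicates of 3.09 and 3.63 without arsenic on 33875 IP and 7200 input reads. With arsenic it had 2.04 and 3.96 on 32041 and 7230. The 5′ segment of RNU2-2P had 3.23 and 4.03 on 39938 and 7237 reads, and with arsenic 1.44 and 4.24 on 39025 and 10961. Ranges overlapped for both genes, and the replicates lay further apart with arsenic. The window of RNU2-2P also names WDR74, and that of RNU5E-1 also names RP5-934G17.7.

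RNU2-63P, the remaining U2 gene annotated as snRNA, was listed only with arsenic and had no input read at all. Its window on hg38, chr2:88016451-88016547 on the minus strand, covers the 5′ segment of the gene, had 26 IP reads and replicates of 5.19 and 5.53, and is the sole listed snRNA window whose sequence stood in the sources used here. It is shown, from RefSeq on GRCh38, because it gave the highest U2 enrichment with arsenic on a sequence rich in A and T, with 30.9% G and C.
RNU2-63P: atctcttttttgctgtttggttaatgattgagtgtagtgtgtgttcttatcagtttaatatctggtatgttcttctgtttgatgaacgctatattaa
The motif GTAGTA, the stretch of U2 that pairs with the branch site, did not occur in this window on either strand, so no base is in capitals. It occurs in 1.29% of 35116 regions of the same length around RefSeq start sites.

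Among the U2 pseudogenes, RNU2-4P on chromosome 17 had the most reads. Its 5′ segment had 4.99 and 5.04 without arsenic on 15193 IP and 1334 input reads, and 4.48 and 4.75 with it on 16329 and 1344, ranges that did not overlap. RNU2-6P on chromosome 13 had 4.92 and 5.99 without arsenic and 3.56 and 4.50 with it, likewise apart and lower with arsenic. RNU2-68P, in an intron of HDAC8 on the X chromosome, had the opposite order, with 2.75 and 3.29 without arsenic on 32 IP and 7 input reads and 4.54 and 5.56 with it on 76 and 3. RNU2-3P on chromosome 15 had 3.41 and 5.58 without arsenic on 26 IP reads and 2.89 and 3.25 with it on 45, without overlap. RNU2-5P on chromosome 9 had 4.51 and 4.57 without arsenic, inside the 4.29 and 5.08 found with it. RNU2-64P and RNU2-59P had overlapping ranges, with means of 4.60 and 3.65 without arsenic and 4.76 and 4.05 with it.

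All 3 listed minor spliceosome genes were found in both whole cell experiments. RNU4ATAC, the minor counterpart of U4, lies on chromosome 2, with its listed windows at 121530881 to 121531007. Its 5′ segment had 2.39 and 2.99 without arsenic on 2030 IP and 535 input reads, and 2.71 and 3.67 with it on 2949 and 529. RNU6ATAC, the counterpart of U6, had 2.09 and 2.41 on 4003 and 1138 reads without arsenic, and 2.41 and 3.36 on 4822 and 833 with it, ranges that did not overlap but met to 2 decimals. Its pseudogene RNU6ATAC2P had 1.40 and 1.73 in its 5′ segment without arsenic and 2.63 and 4.60 with it, also apart. Its 3′ segment, which held more IP reads over both lists, had 1.71 and 2.46 without arsenic and 2.02 and 3.49 with it, which overlapped. The median of the minor class was 2.17 without arsenic and 2.89 with it, below the list medians of 3.46 and 3.60 and below U6. RNU11 and RNU12, the other minor genes annotated as snRNA, were in no list.

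By the symbol rule, U1 was hardly found with SNRNP200, and bare symbols were not counted. The only U1 copy in whole cells was RNVU1-34 on chromosome 17, annotated as a pseudogene, with replicates of 2.26 and 3.15 without arsenic on 75 IP and 19 input reads. With arsenic it had 3.88 and 4.37 on 35 and 2. RefSeq annotates 144 U1 genes and pseudogenes, 21 of them as snRNA, and none of the 21 was listed for SNRNP200.

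Read totals and enrichment ranked the classes differently. All snRNA windows together took 2.89% of listed IP reads in untreated whole cells (95% exact interval 2.88 to 2.90) and 4.28% with arsenic (4.26 to 4.29). Their share of listed input reads was larger, 5.81% and 7.92%. U6 had the larger share in the IP, 0.361% against 0.101% of input without arsenic and 0.691% against 0.297% with it. The single U1 window had 0.000629% of IP and 0.000321% of input reads with arsenic, and 0.000927% and 0.00182% without it. Minor snRNAs took 0.0795% and 0.155% of IP reads. These shares use only listed windows, so they move with what else was listed. In windows that named no gene other than snRNAs, the shares of IP reads were 1.73% without arsenic and 2.58% with it.

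RefSeq snRNA genes supplied most reads in every class with several genes. They held 88% of U2, 79.1% of U5, 75.3% of U6 and 93.8% of minor IP reads without arsenic, and 79.2%, 76.1%, 63.1% and 95.1% with it. Their IP reads per input read were lower than those of the pseudogenes for U2, 4.02 against 11.4, and for U5, 2.16 against 4.31, without arsenic. With arsenic these values were 3.91 against 10.6 and 3.42 against 7.12. For U6 they were 30.3 against 22.4 without arsenic and 20.3 against 21.9 with it. The minor class had 3.61 against 2.38 without arsenic and 5.25 against 5.45 with it. Without arsenic the U2 snRNA genes were listed in both segments and the U2 pseudogenes in the 5′ segment only, so unlike segments are compared. With arsenic RNU2-4P held 16359 of the 18634 IP reads of the U2 pseudogenes.

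**Figure D3:**
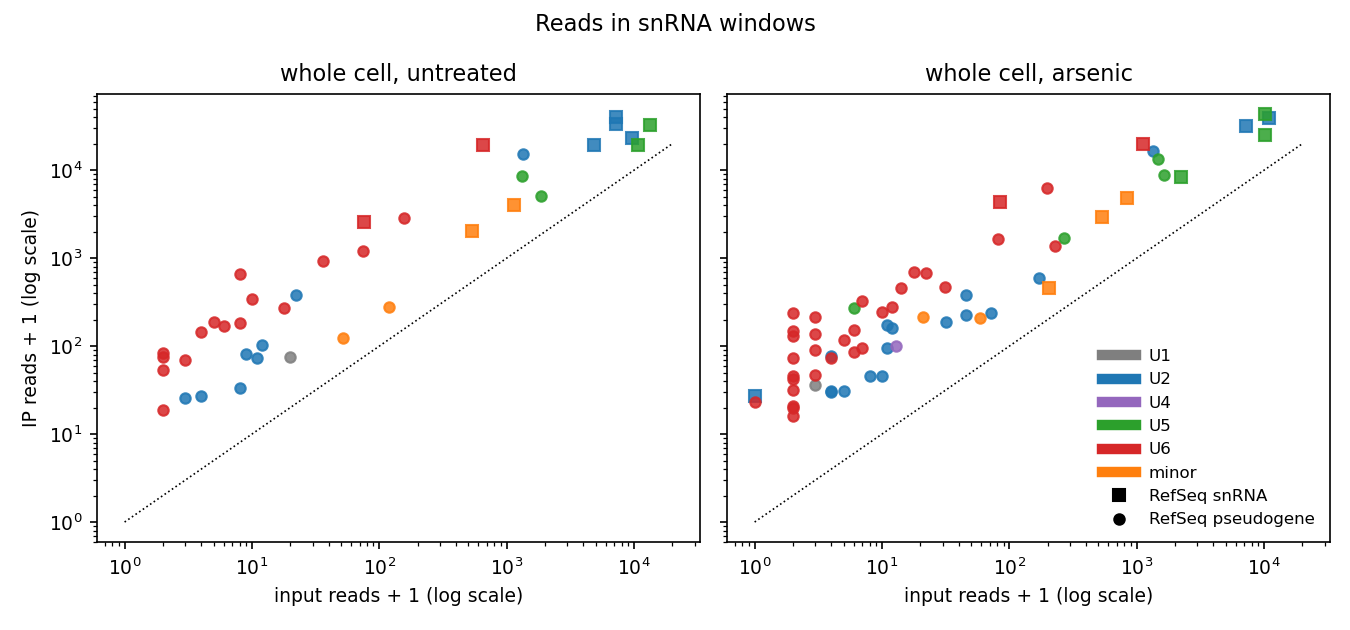
IP reads plus 1 against input reads plus 1, both on log scales, for each snRNA window of SNRNP200 in whole cells, coloured by class, with squares for genes annotated as snRNA and circles for pseudogenes; the dotted line marks equal counts. U2 and U5 snRNA genes lie at the upper right with the most input reads, while U6 windows lie far above the line, most with fewer than 10 input reads.

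Within an snRNA, SNRNP200 windows lay mostly in the 5′ segment for U2 and U5. Each window was assigned to the 5′ or the 3′ segment of the RefSeq gene, according to the side of the gene's midpoint that its own middle fell on. For U2, 8 of 10 genes were listed in the 5′ segment only and 2 in both without arsenic. With arsenic 7 of 13 were listed in the 5′ segment only, 1 in the 3′ segment only, RNU2-70P, and 5 in both. For U5, all 4 genes were listed in the 5′ segment only without arsenic, and 3 of 5 with it, the others in both. The minor genes followed with 2 of 3 in the 5′ segment only and 1 in both, and with arsenic 1 and 2. For U6, 6 genes were listed in the 5′ segment only, 3 in the 3′ segment only (RNU6-15P, RNU6-38P and RNU6-1099P) and 4 in both without arsenic, and 10, 10 and 6 with it. The segments of a gene share its reads and are not replicates, and these counts were not tested.

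Where both segments were listed, the replicate ranges could be set against each other. RNU2-1 without arsenic had 3.09 and 3.63 in its 5′ segment and 1.22 and 1.69 in its 3′ segment, though the 3′ segment held 22980 IP and 9627 input reads. RNU2-2P had 3.23 and 4.03 against 2.26 and 2.73. Neither 3′ segment was listed with arsenic, and these were the sole snRNA windows of the untreated list that were missing from the arsenic one, 36 of 38 being shared. With arsenic the 5′ segment of U2 was higher with no overlap in 4 of 5 genes, RNU2-26P, RNU2-4P, RNU2-5P and RNU2-64P, the last with 4.10 and 5.43 against 2.44 and 3.13. The exception was RNU2-61P, named for its overlap, with means of 2.85 in both segments. RNU5E-1 with arsenic had 3.19 and 3.33 against 2.05 and 2.92, and RNU4ATAC had 2.71 and 3.67 against 1.80 and 2.57. The ranges of both segments overlapped for RNU5E-4P with arsenic and for RNU6ATAC2P in both conditions. For U6 without arsenic, the 5′ segment was higher in RNU6-27P and RNU6-1329P, and the ranges overlapped in RNU6-7 and RNU6-17P. With arsenic the ranges overlapped in 4 of 6 U6 genes, and in the others the 5′ segment was higher for RNU6-222P and the 3′ segment for RNU6-1099P.

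**Figure D4:**
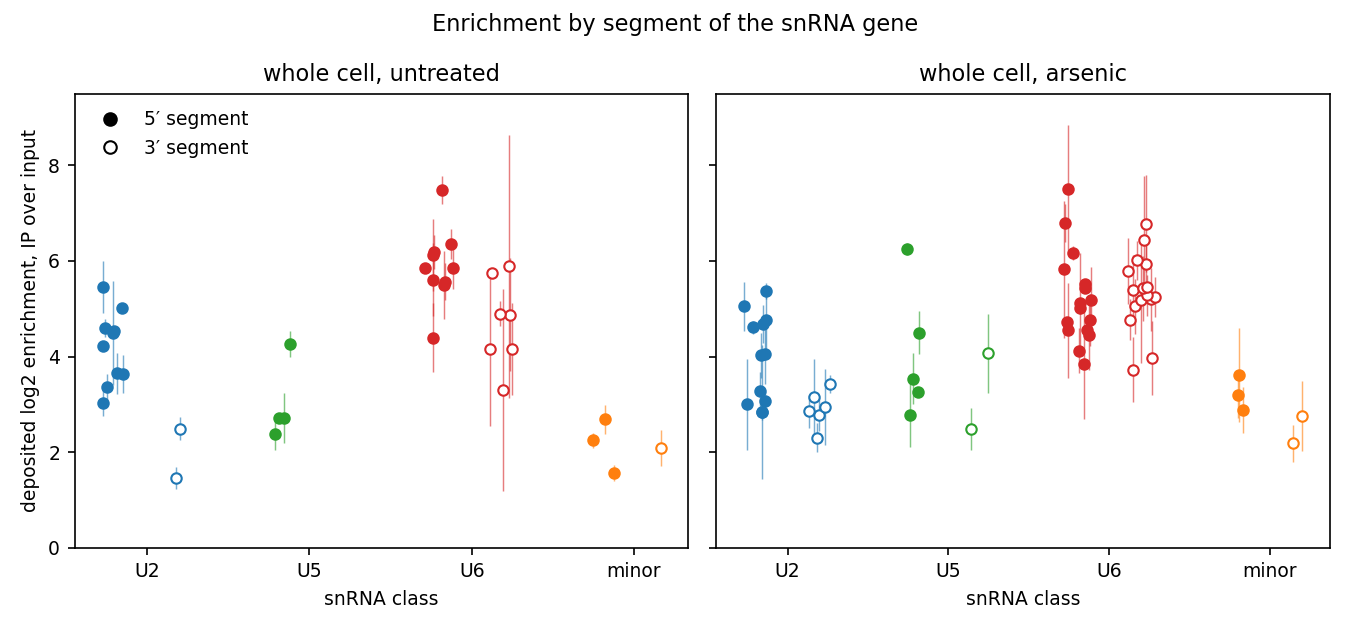
Deposited log2 enrichment (y axis) of snRNA windows of SNRNP200 in whole cells by class, with filled circles for the 5′ segment of the gene, open circles for the 3′ segment, and lines from the lowest to the highest replicate; sideways spread within a class is only for legibility. The U2 3′ segments lie at means of 1.46 and 2.49 without arsenic, below all U2 5′ segments, whereas U6 segments intermingle.

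The same windows were then compared between arsenic and untreated whole cells with limma on the replicate enrichments. One window per gene was used, the shared one with most IP reads, and p values were adjusted by Benjamini-Hochberg over all 7531 genes tested. No gene was called, snRNA or other (0%), and 288 genes had an unadjusted p under 0.05. Replicate ranges did not overlap for 12 of the 31 snRNA genes tested, or 38.7%, against 32% of all genes. They were higher with arsenic for 5, against 16.9% of all genes, and lower for 7, against 15.1%. On simulated data limma recovered 0% of differences of log2 1, 4% of log2 2, 20% of log2 3 and 88% of log2 5, so differences of the size seen here were mostly not detectable.

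By class, the U5 and minor genes lay on 1 side. All 4 U5 genes had higher means with arsenic, by 0.23 to 0.83 with a median of 0.47, and 1 had ranges that did not overlap. All 3 minor genes were higher by 0.50 to 0.67, with 1 not overlapping. The median over all genes was 0.09, and 53.8% of genes had the higher mean with arsenic. U2 had 4 genes higher and 6 lower, with a median of -0.38, and 4 of the 5 with separate ranges were lower (RNU2-26P, RNU2-3P, RNU2-4P and RNU2-6P). U6 had 7 higher and 6 lower, with a median of 0.32 and values from -2.04 to 2.13.

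No snRNA gene came near the threshold, the limma adjusted p being 0.99 for each of the 31. RNU6-27P had the lowest difference, -2.04 (SE 0.85), with an unadjusted limma p of 0.0299. Its 3′ segment, which was not the window tested, had 3.20 and 5.11 without arsenic and 5.35 and 5.55 with it, the opposite direction. RNU2-68P had a difference of 2.03 (SE 0.87), with an unadjusted limma p of 0.0341. RNU6-17P had one of 2.13 (SE 1.18) and RNU6-393P one of -1.81 (SE 0.85). RNU6-7 differed by -0.73 (SE 0.94), RNU2-1 by -0.36 (SE 0.92), RNU5E-1 by 0.55 (SE 0.86) and RNVU1-34 by 1.42 (SE 0.86).

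**Figure D5:**
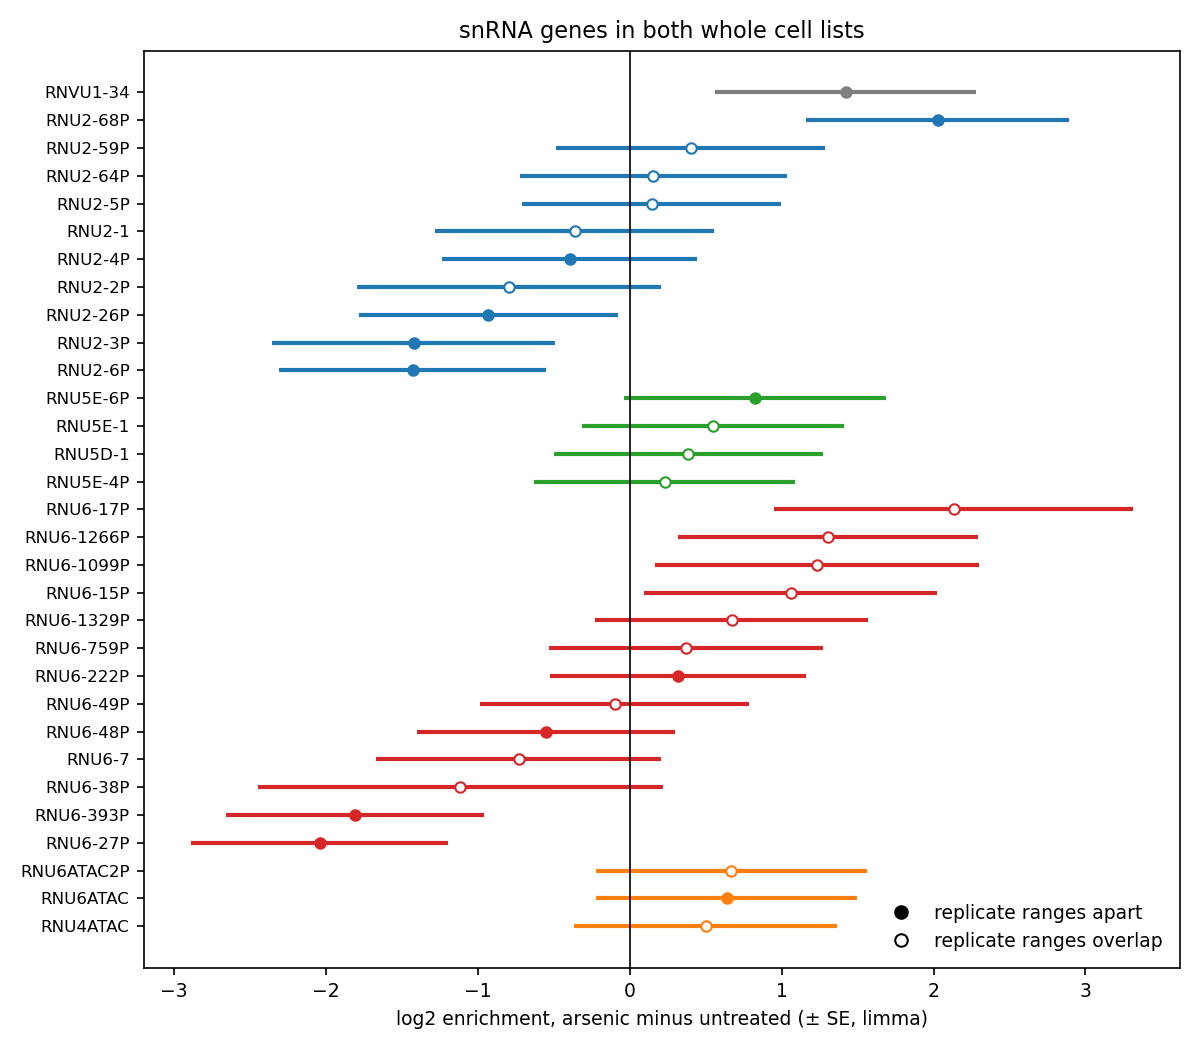
Difference in log2 enrichment, arsenic minus untreated, with its standard error from limma (x axis), for the 31 snRNA genes with a window in both whole cell lists, coloured by class as in the plot of genes per list. Filled points mark the 12 genes whose replicate ranges did not overlap; none passed the adjusted threshold, and the 4 U5 (green) and 3 minor (orange) genes lie at or above 0.23.

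CAPRIN windows named 7 snRNA genes, or 12.5% of the 56, against 44.6% of all genes. They were RNU2-2P, RNU2-4P, RNU2-64P, RNU2-68P, RNU2-6P, RNU4ATAC and RNU5E-1, and all 7 were also listed for SNRNP200 in both whole cell experiments. No U1, U4 or U6 copy was among them. Their 10 windows took 0.179% of listed IP reads (95% exact interval 0.169 to 0.190) and 1.38% of listed input reads, at a median enrichment of 2.38 against 3.71 for the whole list. In windows that named no gene other than snRNAs the share of IP reads was 0.0552%, in 4 genes. CAPRIN windows did not keep to the 5′ segment. RNU2-2P was listed in its 3′ segment only, at 0.70 and 1.57 on 494 IP and 750 input reads, and RNU5E-1 in its 3′ segment only, at 1.02 and 1.37 on 278 and 427. RNU4ATAC had 2.27 and 2.64 in its 5′ segment and 2.74 and 3.86 in its 3′ segment, the reverse of its order for SNRNP200 with arsenic. RNU2-6P had 2.22 and 2.40 in the 5′ segment and 3.54 and 4.52 in the 3′ segment, the latter on 8 IP reads and no input read.

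G3BP1 windows named 10 snRNA genes, 17.9% of the 56 against 12.6% of all genes, and took 0.629% of listed IP reads (95% exact interval 0.596 to 0.663), or 0.233% in 5 genes where windows named no gene other than snRNAs. U1 made up 5 of the 10, and none of these 5 was listed in any other experiment. RNVU1-19, an snRNA gene on chromosome 1 with its window at 120850819 to 120850901, had replicates from 2.18 to 3.27 on 312 IP and 165 input reads. RNVU1-4, an snRNA gene in an intron of LINC00623 on chromosome 1, had 2.54 to 5.53 on 20 and 3. The pseudogenes RNU1-11P with 3.03 to 4.36, RNU1-16P in an intron of DCUN1D2 with 3.68 to 4.0 on 13 IP reads, and RNU1-18P with 1.24 to 1.86 made up the rest. The other G3BP1 genes were RNU2-33P in an intron of GSKIP at 2.35 to 3.90, RNU2-59P at 4.43 to 4.91, RNU6-31P at 1.19 to 1.49, RNU5E-1 in its 3′ segment at 1.82 to 2.75, and RNU4ATAC at 3.42 to 4.17. Some G3BP1 windows carry 3 replicates although the labels give 2, so these are the lowest and highest of up to 3. RNU4ATAC and RNU5E-1 were the 2 genes shared with CAPRIN, 28.6% of its list and 20% of the G3BP1 list. With q of at most 0.05 in the authors' deposited table, 6 of the 10 G3BP1 genes were listed.

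The snRNAs did not stand alone among small RNAs with these proteins. Of the windows on small RNAs, those matched by the snRNA symbol rule were 38 of 69 in untreated whole cells and 64 of 85 with arsenic. For CAPRIN they were 10 of 49 and for G3BP1 10 of 66. The small RNA windows outside the symbol rule had median enrichments of 3.39 in 31 windows without arsenic and 4.16 in 21 with it. For CAPRIN the median was 1.88 in 39 windows and for G3BP1 2.73 in 56. These windows may include bare symbols such as U2 and U6, so their medians are not those of other small RNAs only. The genes counted above as other small RNAs numbered 6 and 2 in the whole cell lists, 16 for CAPRIN and 35 for G3BP1.

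The mRNAs of proteins that build snRNPs were examined from a list of 84 genes, 82 of which were in at least 1 of the 6 lists. Of these, 80 were listed for SNRNP200 in untreated whole cells and 76 with arsenic, where 92.4% and 83.8% of all genes were. CAPRIN listed 59, against 44.6% of all genes, and G3BP1 listed 13, against 12.6%. In the cytoplasm 16 were listed without arsenic and 32 with it, against 18.6% and 25.2% of all genes. Of 14 genes of the Sm and LSm rings, which clasp the snRNAs, 1 was listed without arsenic and 10 with it. The numbers were 5 and 8 of 15 for U1 and U2 proteins, 3 and 6 of 17 for assembly and transport, 0 and 2 of 9 for transcription and 3′ processing, and 0 and 1 of 7 for minor spliceosome proteins. For U5 and tri-snRNP proteins they were 6 and 5 of 16, and for U6 processing and recycling 1 and 0 of 6. The cytoplasmic lists as a whole named 1818 and 2472 genes, and their baselines differed as given above. The part of the baseline in these counts was not tested.

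In whole cells limma called 0 of the 72 genes of this list with a shared window, and 3 had an unadjusted p under 0.05. Ranges did not overlap for 26.4% of them, against 32% of all genes, and their median difference was -0.18 against 0.09 for all genes. SNU13, which binds U4, had 1.69 and 1.92 without arsenic and 2.80 and 5.65 with it, a difference of 2.42 (SE 0.99). LSM8, of the ring that binds the U6 tail, differed by 1.85 and SF3A3, of the U2 particle, by 1.46. SNRNP48 of the minor spliceosome had 5.73 and 6.35 without arsenic and 2.32 and 4.40 with it, a difference of -2.68 (SE 0.93). PRPF6 differed by -2.02 and SF3B2 by -1.28. SNRNP200's own mRNA differed by -0.14, PRPF8 by 0.56, EFTUD2 by -0.28 and LARP7, which binds U6 and 7SK RNA, by -0.73. The limma adjusted p was 0.99 for each of these 10 genes.

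In the cytoplasm limma called 0 of 686 genes (0%), with 206 at an unadjusted p under 0.05. The 6 genes of the list with a shared window all had higher values with arsenic and ranges that did not overlap, as did 71.3% of all genes. SF3B3 had 2.13 and 3.57 without arsenic and 4.59 and 7.16 with it, a difference of 3.02 (SE 1.26). SF3B4 differed by 2.87, SNRPB by 2.51, PRPF8 by 2.08, GEMIN4 by 1.20 and SNRNP70 by 0.50, where the median over all genes was 2.02. SF3B3 had a limma adjusted p of 0.147, the lowest of the 6. After removal of that median, 4 of the 6 were above 0 and SNRNP70 and GEMIN4 were below.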

How the data were processed

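Groups of the 24 eCLIP libraries follow the labels' protein, cell fraction, treatment and kind of library. Trimming used fastp 0.11.5 and alignment to hg38 used STAR 2.7.6, per the submitters' processing notes. The sources used here do not name the program that called windows. The 6 deposited lists have no column names, so each column was identified by what it holds. The deposited counts are raw IP and input reads per window, which the authors summed over replicates. Deposited log2 values are GC-matched enrichments of IP over input, with the lowest replicate, the mean and the highest, and no replicate numbers. Of the deposited p values and q values each list holds the lowest and highest replicate, and q was under 0.2 in all listed windows. GC content was deposited as a fraction of the bases in a window.

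Windows naming several genes counted for each, and gene midpoints, positions and biotypes came from RefSeq (GRCh38.p14), where all 56 snRNA genes were matched. Bare symbols such as U2 and U6 stand in the lists but were not matched by the symbol rule. Arsenic was compared with limma 3.58.1 in R 4.3.3 (two-sided, unpaired, not centred, adjusted p under 0.05, Benjamini-Hochberg over all genes), tested on simulated data; shares have exact (Clopper-Pearson) 95% intervals that cover counting error only. Library totals were not used here, so depth is unknown.

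The members and gene lists were chosen with earlier results of these data known. Named were all members of classes of up to 6, and of U2 and U6 those without a final P, those in at least 3 lists, and the 5 highest by enrichment and by IP reads per list. RNU6-28P, RNU6-398P, RNU6-1099P, RNU2-26P and RNU2-70P were named after their values were seen. Of the snRNP list, named were the 3 largest differences each way and SNRNP200, PRPF8, EFTUD2 and LARP7. Alternatives were stricter q, read minimums, single-gene windows, equal list lengths, the lowest replicate, uncorrected count ratios, and other limma settings. The minimum of 10 input reads, and all alternatives for the U6 copies listed only with arsenic, were chosen after seeing the data.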

Additional observations from a re-analysis of the deposited data

How the results depend on the processing

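Of the recomputed values, 156 stayed within their limits and 39 moved. The limits were a fixed ratio for counts, the replicate spread for medians and the exact interval for shares. Count ratios less the list median all counted as moved, since the deposited medians they were set against were not centred. Some alternatives could not move a value, such as equal list lengths for the arsenic list, which was already the shorter. The tally is therefore no measure of how firm the results are. With at least 10 input reads per window, snRNA genes in whole cells numbered 18 without arsenic (U2 6, U6 4, 23 windows) and 24 with it (U6 7, 33 windows), CAPRIN had 6 windows, and 3 U6 copies were listed only with arsenic, 2 of them intronic. With only windows that name no gene other than snRNAs, the untreated list had 25 genes and the arsenic list 29 (U5 3, U6 11) in 42 windows, CAPRIN 4 (U2 3), and G3BP1 5 in 5 windows. Then 1 U6 copy was listed only with arsenic, with 0 in introns, since this setting removes windows that name a host gene. The snRNA shares of IP reads became 1.73% and 2.58% in whole cells, 0.0552% for CAPRIN and 0.233% for G3BP1. With at least 20 IP reads CAPRIN kept 3 U2 genes and 6 windows in all, and with q of at most 0.05 G3BP1 had 6 genes in 6 windows. By the lowest replicate the U2 median without arsenic was 3.32. The log2 ratio of counts minus the list median was -0.0647 and -0.17 for U2, -1.42 and -0.52 for U5, 2.01 and 1.61 for U6 and -1.27 and -0.46 for the minor class, without and with arsenic. U1 and U4 were not computed on this scale.

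In whole cells limma called 0 snRNA genes under every alternative run. In the cytoplasm, after removal of the median difference, the median of the snRNP list was 0.27. With q of at most 0.05, only 1 gene of the list was tested and limma called it, as it did 21 of all 39 genes tested. Over all cytoplasmic genes it called 115 with a variance trend, 40 with at least 20 IP and 10 input reads, 21 with q of at most 0.05 and 30 with the mean of shared windows, all higher, against 0 as reported; 95.8% of differences were above 0 as reported and 50% once centred. Where not stated, the cause was not tested. No paired analysis was possible because the lists carry no replicate numbers, and for the same reason no replicate could be left out. Low input limits the precision of the U6 enrichments.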
